A study of Mus musculus with 4 samples.

Results

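Myelin is the multilayered membrane that oligodendrocytes wrap around axons in the brain. Its layers are held together by a small set of abundant proteins: some pack the compact layers, some keep the cytoplasmic channels open, and some face the axon or the outer surface. Oligodendrocyte maturation depends on thyroid hormone, which the thyroid makes from iodine, and transcripts of these proteins serve as markers of mature oligodendrocytes. The genes described here are 9 myelin structural genes, namely Mbp, Mog, Mag, Mobp, Cnp, Cldn11, Opalin, Ermn and Mal, chosen by name, of 22911 genes that could be named on the array. They were represented by 13 of 56605 non-control probes: 3 for Mbp, 2 each for Mobp and Mog, and 1 each for the other 6 genes. Female mice went through behavioural tests, after which total RNA of their dorsal hippocampus was labelled with Cy3 and read on Agilent 1-colour arrays, in a study of excess iodine intake and brain development. The control group and the 20-fold iodine group had 2 arrays each, replicates 2 and 3. The labels name no strain, age or length of intake and do not say whether each array was a separate animal, so p-values rest on a spread between samples that may be technical only. RNA was measured in bulk, so fewer oligodendrocytes and less RNA per oligodendrocyte cannot be told apart.

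All 13 probes were well above background on all 4 arrays, with processed signals from 116 fluorescence units upward, so no member was lost to the filter on dim probes (38231 probes were kept). Each member probe had 1 spot per array, none was saturated and none was an outlier spot. The share of all probes well above background was 66.3 to 67.0% per array, and the 75th percentile of the signal ranged from 144 to 159 units. The arrays shared a single slide and scan. Controls sat in columns 1 and 2 of it and iodine samples in columns 3 and 4, and these positions cannot be told apart from the groups.

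Some myelin probes read higher and others lower with iodine. Of the 13 probes 7 were higher and 6 lower in the 20-fold iodine group, with a median log2 difference of 0.061 against 0.0092 over all 38231 probes, and 0 passed limma's adjusted p of 0.05 (adjusted p = 0.522 to 0.891). Over all probes 0 passed as well (background 0% called). At an unadjusted p under 0.05 there were 2 of the 13, the brightest Mbp probe (higher) and the brighter Mobp probe (lower), where 9.03% of all probes reached that limit (5.89% higher and 3.14% lower). Control and iodine arrays were fully separated in 8 of the 13 probes, 4 higher and 4 lower in iodine, against a background of 41.6% (23.2% higher and 18.4% lower). Counted by gene on the brightest probe, Mbp, Mag and Cnp were higher without overlap, Mobp, Cldn11 and Mal lower without overlap, and Mog, Opalin and Ermn overlapped. The 95% confidence intervals of the 13 differences lay between -0.55 and 0.81 on the log2 scale.

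**Figure D1:**
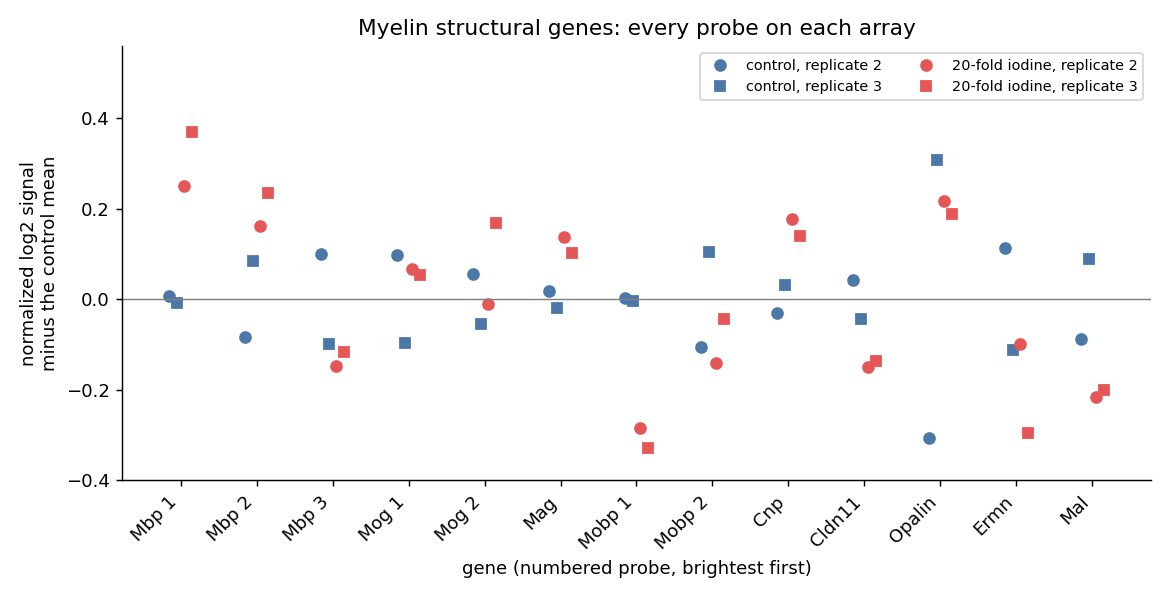
Normalized log2 signal of each of the 13 myelin probes on each of the 4 arrays, drawn as the deviation from that probe's control mean; circles are replicate 2 and squares replicate 3, and numbered probes of a gene run from the brightest. The iodine arrays lie above both controls for the brightest Mbp probe, Mag and Cnp and below both for the brighter Mobp probe, Cldn11 and Mal, while the 2 control arrays of Opalin lie 0.61 apart.

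**Figure D2:**
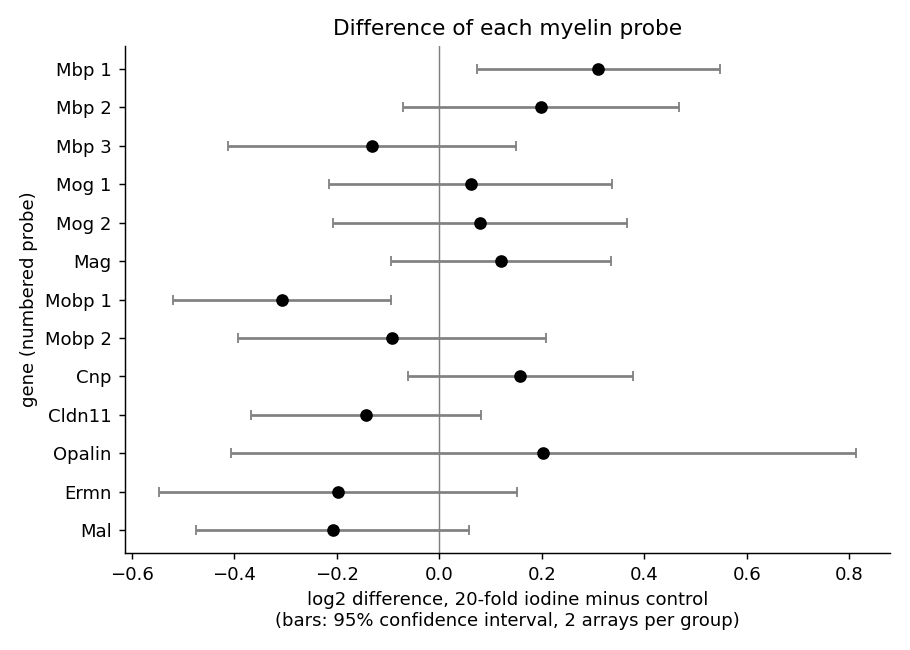
Log2 difference (20-fold iodine minus control) of each myelin probe, with its 95% confidence interval from the fit over all probes, 2 arrays per group. The intervals of 2 probes, Mbp 1 (0.31) and Mobp 1 (-0.31), leave out 0, and neither probe passed the adjusted threshold.

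Promoter sequences are given for 5 of the 6 genes whose brightest probe did not overlap between the groups, because Mobp, Mal and Cldn11 were lower in iodine and Mag and Cnp higher. Each is the 250 bases before the transcription start as RefSeq places it (build GRCm38.p6), printed 5′ to 3′ on the gene's own strand. Capitals mark 7 motifs, searched on both strands. ACAAAG is a core bound by SOX factors such as SOX10, which drives oligodendrocyte genes. The core ACAATG is its close variant. CTGGCAC is bound by MYRF, the myelin regulatory factor. The variant CTGGTAC was searched for the same factor. TATAAA is the TATA box. The other motifs were CCAAT, named by its letters, and the GC box, which reads GGGCGG. No motif overlapped another in these windows. Mobp lies at chr9:120149492-120149741 (plus strand), Mal at chr2:127656696-127656945 (minus), Cldn11 at chr3:31149670-31149919 (plus), Mag at chr7:30914864-30915113 (minus, the first of 3 listed starts) and Cnp at chr11:100574689-100574938 (plus).
Mobp: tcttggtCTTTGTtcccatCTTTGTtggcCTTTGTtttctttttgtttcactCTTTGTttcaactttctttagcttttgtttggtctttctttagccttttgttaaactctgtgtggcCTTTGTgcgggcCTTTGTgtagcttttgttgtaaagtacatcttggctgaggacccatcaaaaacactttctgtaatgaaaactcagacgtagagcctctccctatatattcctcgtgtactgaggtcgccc
Mal: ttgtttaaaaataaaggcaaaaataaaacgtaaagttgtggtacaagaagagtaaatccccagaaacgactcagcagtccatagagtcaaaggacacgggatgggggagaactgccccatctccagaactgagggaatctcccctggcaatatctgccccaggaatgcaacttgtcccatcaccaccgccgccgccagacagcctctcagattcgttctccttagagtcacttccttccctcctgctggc
Cldn11: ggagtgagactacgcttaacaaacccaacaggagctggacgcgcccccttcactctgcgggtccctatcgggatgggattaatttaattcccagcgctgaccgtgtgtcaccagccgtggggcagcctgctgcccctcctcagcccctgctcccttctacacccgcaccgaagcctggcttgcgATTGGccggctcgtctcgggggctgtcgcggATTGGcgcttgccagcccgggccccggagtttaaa
Mag: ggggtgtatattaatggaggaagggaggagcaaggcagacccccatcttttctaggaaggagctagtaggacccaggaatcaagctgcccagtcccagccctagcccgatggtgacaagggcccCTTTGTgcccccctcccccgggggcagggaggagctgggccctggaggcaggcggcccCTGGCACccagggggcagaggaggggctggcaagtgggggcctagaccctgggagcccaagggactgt
Cnp: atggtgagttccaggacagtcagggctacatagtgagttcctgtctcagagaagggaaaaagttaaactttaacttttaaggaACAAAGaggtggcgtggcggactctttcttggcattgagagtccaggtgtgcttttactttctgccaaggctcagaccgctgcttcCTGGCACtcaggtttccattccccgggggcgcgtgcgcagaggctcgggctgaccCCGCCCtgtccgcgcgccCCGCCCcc

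The Mobp window held 6 copies of ACAAAG, all on the strand opposite the gene (read as CTTTGT), the first beginning at position -243 and the last ending at position -115 from the start. Of 32851 windows of the same length, 16.5% held at least 1 copy of ACAAAG, 0.0213% held 4 or more, and 0.00304%, the Mobp window alone, held 6 or more SOX cores of either kind. Mag and Cnp each held 1 copy of ACAAAG and 1 of CTGGCAC, which 4.19% of all windows hold. Cnp also held 2 GC boxes (16.7% of windows hold 2 or more) and Cldn11 held 2 copies of CCAAT (10.1% hold 2 or more). The Mal window held none of the 7 motifs. Such matches describe letters and show no binding.

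Mbp encodes myelin basic protein, which joins the cytoplasmic faces of compact myelin. Its brightest probe (A_55_P2889696) gave processed signals of 2713 and 2605 on the control arrays, and of 3026 and 3169 with iodine. The normalized log2 values were 11.34 and 11.32 for controls against 11.58 and 11.70 for iodine, so both iodine arrays stood above both controls. The difference was 0.31 ± 0.087 (SE, n = 2 per group; 95% confidence interval 0.073 to 0.55; limma adjusted p = 0.532), or 1.24-fold. A second probe (A_52_P329451), placed by the array on the same RefSeq transcript, stood at 10.27 and 10.44 for controls against 10.52 and 10.59 for iodine, again without overlap, with a difference of 0.20 ± 0.099 (SE; -0.071 to 0.47; limma adjusted p = 0.632) that was 0.11 without control replicate 2. The third probe (A_52_P604195), placed on another Mbp transcript, stood at 10.49 and 10.29 for controls against 10.25 and 10.28 for iodine. Here both iodine arrays were below both controls, with a difference of -0.13 ± 0.10 (SE; -0.41 to 0.15; limma adjusted p = 0.745). Without control replicate 2 it was -0.032, and without control replicate 3 it was -0.23. The fitted differences of the 3 Mbp probes had unlike signs, and their mean differed by 0.13.

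Mobp encodes myelin-associated oligodendrocytic basic protein, another small basic protein of compact myelin. Its brighter probe (A_55_P1958798) gave processed signals of 2573 and 2487 on control arrays, and of 1986 and 1857 with iodine. The normalized log2 values were 11.26 on both control arrays against 10.97 and 10.93 for iodine. The controls were 0.0068 apart and the iodine arrays 0.044 apart, against a difference between groups of -0.31 ± 0.079 (SE, n = 2 per group; -0.52 to -0.094; limma adjusted p = 0.522), or 1.24-fold higher in controls. The dimmer probe (A_51_P291224), placed on another Mobp transcript, read 8.98 and 9.19 for controls against 8.94 and 9.04 for iodine. Its groups overlapped, and its difference was -0.093 ± 0.11 (SE; -0.39 to 0.21; limma adjusted p = 0.836). Without control replicate 3 that value was 0.012, so of these probes only the brighter kept its direction in each of its 12 alternative settings.

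Mal, a raft-associated proteolipid of compact myelin, was read at 4888 and 5364 units for controls against 4219 and 4110 units for iodine. Its normalized log2 values were 12.19 and 12.37 for controls against 12.06 and 12.08 for iodine. The difference was -0.21 ± 0.098 (SE; -0.47 to 0.059; limma adjusted p = 0.616), with the iodine arrays below both controls and only 0.015 apart. Without control replicate 3 it was -0.12. Cldn11, the claudin that forms the tight junction strands between myelin layers, read 2135 and 1953 units for controls against 1760 and 1712 for iodine. On the log2 scale it stood at 10.99 and 10.91 against 10.80 and 10.81. Its difference was -0.14 ± 0.083 (SE; -0.37 to 0.080; limma adjusted p = 0.671), again without overlap. Among the compact myelin genes Mobp, Mal and Cldn11 were thus on the lower side in iodine and 2 of 3 Mbp probes on the higher side, and 0 of these 7 probes passed the adjusted threshold.

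Cnp encodes the phosphodiesterase CNPase, which keeps cytoplasmic channels open in myelin. Its probe read 1954 and 1982 units for controls against 2130 and 1998 for iodine, or 10.87 and 10.93 against 11.08 and 11.04 on the normalized log2 scale. The iodine arrays stood above both controls, with a difference of 0.16 ± 0.081 (SE; -0.062 to 0.38; limma adjusted p = 0.640). Mag, the sialic acid-binding adhesion protein on the myelin face next to the axon, read 2789 and 2637 units for controls against 2855 and 2684 for iodine. After normalization its log2 values were 11.38 and 11.34 against 11.50 and 11.46, so that groups whose raw signals overlapped no longer did. The difference was 0.12 ± 0.079 (SE; -0.095 to 0.33; limma adjusted p = 0.705). For Cnp and Mag alike the gap between the arrays of a group, 0.037 to 0.063, was smaller than the difference.

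Mog, the immunoglobulin-like protein of the outermost myelin surface, was read by 2 probes. The brighter of its probes (A_66_P123582) read 258 and 219 units for controls against 238 and 228 for iodine, with a log2 difference of 0.061 ± 0.10 (SE; -0.22 to 0.34; limma adjusted p = 0.891). The other (A_66_P119497) read 197 and 177 units for controls against 177 and 194 for iodine, with 0.079 ± 0.11 (SE; -0.21 to 0.37; limma adjusted p = 0.855). The arrays of the groups overlapped on both probes. Without control replicate 3 the first was at -0.036, and without 20-fold iodine replicate 3 the second was at -0.011.

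Opalin, an oligodendrocyte-specific membrane glycoprotein, had the widest gap between controls of the 13 probes. It read 116 and 172 units for controls against 157 and 148 for iodine, or 6.79 and 7.40 against 7.31 and 7.28 on the log2 scale. The controls were 0.61 apart and the iodine arrays 0.029 apart, both within the control range. The difference of 0.20 ± 0.22 (SE; -0.41 to 0.81; limma adjusted p = 0.822) had the widest interval of the 13, and was -0.10 without control replicate 2. Ermn, ermin, a cytoskeletal protein of late oligodendrocyte differentiation, read 20952 and 17398 units for controls against 17060 and 14341 for iodine. Its log2 values of 14.29 and 14.06 overlapped with 14.08 and 13.88. The difference of -0.20 ± 0.13 (SE; -0.55 to 0.15; limma adjusted p = 0.702) lay below the gap of 0.23 between the controls and of 0.20 between the iodine arrays, and it shrank to -0.085 without control replicate 2 and to -0.098 when 20-fold iodine replicate 3 was left out. In all, 7 of the 13 probes had a difference larger than the gap between arrays in both groups, against 29% of all probes.

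Whether probes of a gene differed in their response was tested on the log2 difference between the probes within each array, in a fit over 9924 probe pairs of 6092 genes. No pair passed the adjusted threshold (background 0%), and 13.3% had an unadjusted p under 0.05. The brightest Mbp probe exceeded the third probe by 0.85 and 1.03 in controls and by 1.34 and 1.42 in iodine. That within-array gap was larger in iodine by 0.44 ± 0.11 (SE; 0.16 to 0.73; limma adjusted p = 0.295), without overlap, as in 46.7% of all pairs. With normexp background correction the same pair stood at 0.43 with an adjusted p of 0.032, in a setting that called 149 pairs, and over its 11 alternatives the adjusted p was 0.032 to 0.548. The second Mbp probe against the third differed between the groups by 0.33 ± 0.15 (SE; -0.056 to 0.72; limma adjusted p = 0.427), and the first against the second by 0.11 ± 0.11 (SE; -0.16 to 0.39; limma adjusted p = 0.698). With an array left out, the former lay between 0.15 (without control replicate 2) and 0.51 (without control replicate 3), and the latter between 0.021 (without control replicate 3) and 0.20 (without control replicate 2).

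For Mobp the brighter probe exceeded the dimmer by 2.29 and 2.07 in controls and by 2.03 and 1.89 in iodine, a difference between the groups of -0.21 ± 0.12 (SE; -0.53 to 0.10; limma adjusted p = 0.511), without overlap. It was -0.11 without control replicate 2, -0.14 when 20-fold iodine replicate 3 was left out and -0.32 without control replicate 3. The Mog probes differed in their response by -0.018 ± 0.11 (SE; -0.31 to 0.27; limma adjusted p = 0.962), with overlap, a value that turned to 0.023 without control replicate 2 and to 0.079 when 20-fold iodine replicate 3 was left out. Probes of a gene differed in sign in 2 of these 5 pairs, both with the third Mbp probe, against 42.6% of all pairs. The deposited tables place probes on transcripts by accession only, so which exon each probe reads was not analysed here.

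**Figure D3:**
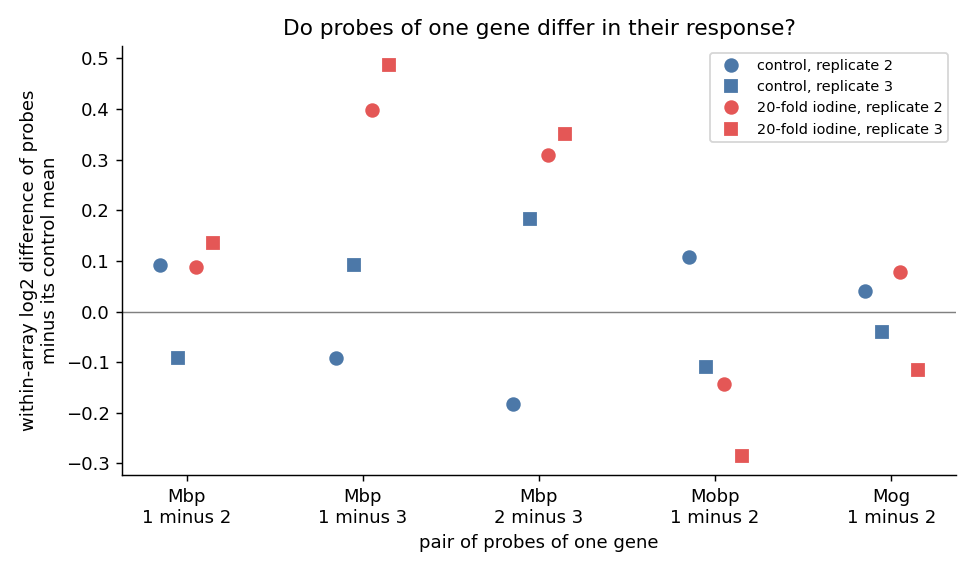
Within-array log2 difference between probes of 1 gene, drawn as the deviation from its control mean, for the 5 pairs of myelin probes on the 4 arrays (circles replicate 2, squares replicate 3). The Mbp pairs that include the probe numbered 3 have both iodine arrays above both controls, by 0.44 and 0.33 on average, and the Mog pair overlaps.

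Other genes of the oligodendrocyte were read from 3 lists, each gene by its brightest kept probe, and 0 of their 60 genes passed limma's adjusted threshold (0% of genes by brightest probe). Over all 16794 genes read that way, 45.7% were higher in iodine, with a median difference of -0.014. Of 24 other myelin and paranode genes 14 were higher and 10 lower, with a median of 0.041. Unadjusted p was under 0.05 in 2 of the 24, both higher, where 6.37% of all genes reached that limit, 3.49% higher and 2.88% lower. Gjb1, a connexin that forms gap junctions of oligodendrocytes, stood at 9.02 and 9.09 for controls against 9.27 and 9.33 for iodine, without overlap (difference 0.25 ± 0.084, SE). Nfasc, neurofascin of the paranode and node, differed by 0.21 ± 0.081 (SE), also without overlap, at an unadjusted p above 0.05, and its 4 probes differed by 0.21 to 0.40.

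Of 16 lipid and metabolic genes 10 were higher and 6 lower, with a median of 0.050 and 2 with an unadjusted p under 0.05, both higher. That limit was reached by 6.37% of all genes (3.49% higher). Not all of the 16 encode enzymes, and Pex5l does not. In bulk RNA the Pex5l reading cannot be assigned to oligodendrocytes alone. Gal3st1, which makes sulfatide, stood at 7.14 and 7.01 for controls against 7.31 and 7.36 for iodine (difference 0.26 ± 0.091), and Pex5l at 10.39 and 10.37 against 10.88 and 10.67 (0.40 ± 0.10, SE). Aspa, aspartoacylase, followed at 0.19 ± 0.11, and at 0.091 without control replicate 3. Enpp2 and Ptgds of the same list are also abundant in choroid plexus and meninges. They were named after their values were seen, for their low readings on 20-fold iodine replicate 2: Enpp2 read 12.91 and 12.81 for controls against 11.95 and 13.35 for iodine, and Ptgds 14.98 and 15.11 against 13.69 and 15.17. The groups overlapped for both genes.

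Of 20 oligodendrocyte transcription factor and signalling genes 17 were higher and 3 lower in iodine, with a median of 0.14. Of all genes by brightest probe 45.7% were higher, with a median of -0.014. The groups did not overlap in 10 of them on the higher side, where 17.9% of genes did so, and in 1 on the lower side (21.9%). At an unadjusted p under 0.05 there were 3, all higher, against 6.37% of all genes (3.49% higher), and 0 passed the adjusted threshold. Myrf, the factor that switches on myelin genes, was very dim, well above background on 1 of 2 control arrays and both iodine arrays. It thus passed the filter of at least 2 arrays only with its iodine arrays, where it was higher. It is nevertheless part of the 17, the 10 and the 3 counted above. It read 2.00 and 2.36 for controls against 2.80 and 2.77 for iodine (difference 0.61 ± 0.14), and 0.11 with normexp background correction. Sox8, a relative of Sox10, stood at 6.48 and 6.51 against 6.78 and 6.92 (0.35 ± 0.091), but its other kept probe differed by -0.033 ± 0.10 (SE), with overlap. Tmem125 stood at 7.69 and 7.59 against 7.95 and 7.84 (0.26 ± 0.092). With normexp background correction the brightest Sox8 probe differed by 0.22 and Tmem125 by 0.20. The limma adjusted p of the 8 genes named here by p from these 3 lists lay between 0.522 and 0.671.

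**Figure D4:**
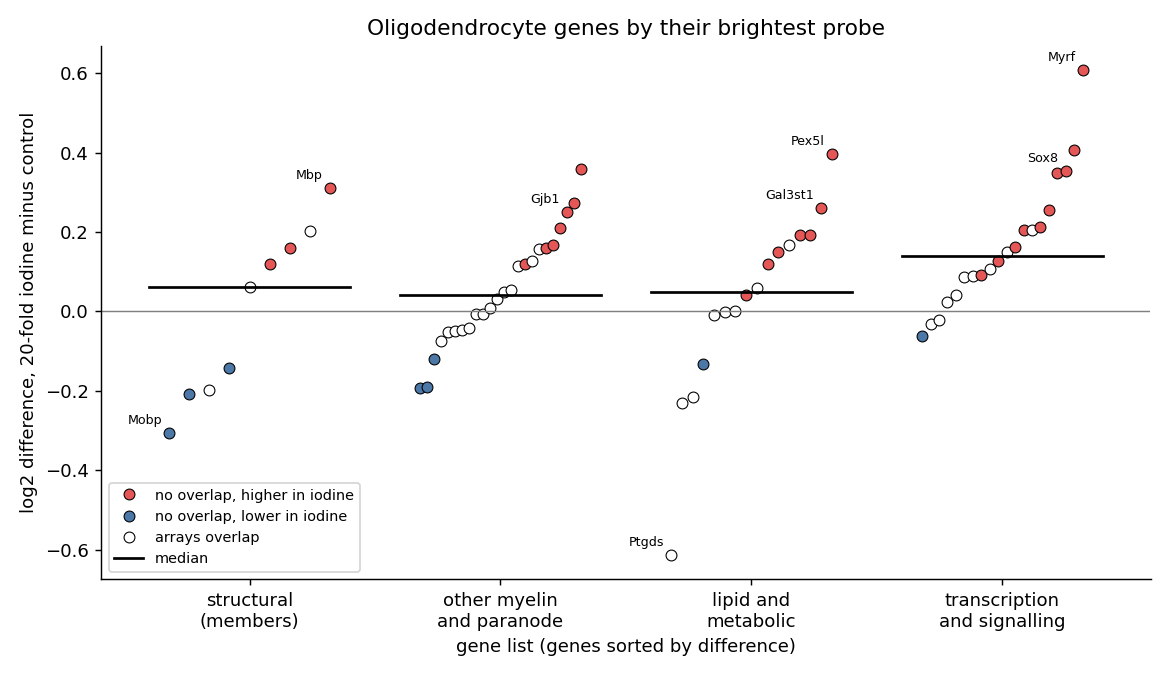
Log2 difference (20-fold iodine minus control) of each oligodendrocyte gene by its brightest probe, in the 9 members and 3 wider lists, sorted within a list; the black line is the list median and filled points have no overlap between the groups' arrays. The members spread on both sides of 0 from Mobp (-0.31) to Mbp (0.31), with a median of 0.061, and the median of the transcription and signalling list is 0.14.

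Markers of other cells show what else these samples held. The Schwann cell genes Pmp2 and Scn7a were well above background on 0 of 4 arrays and were not kept, and Prx, well above background on all 4 arrays, was dim at 3.69 to 3.92 and differed by 0.037 ± 0.12 (SE). The members' list, read by its brightest probes, had median deviations from the 4-array mean of 0.016 and -0.014 in the controls and of 0.037 and 0.024 in the iodine group. Summed signals of the members went the other way, at 36650 and 34246 in controls against 33873 and 31783 in iodine. Ermn is the brightest member in these sums. Of 13 oligodendrocyte precursor genes 8 were higher and 5 lower, with a median difference of 0.12. Their summed signals were 2281 to 2572 in controls and 2546 to 2641 in iodine. Against 6.37% of all genes (3.49% higher), 2 of the 13 had an unadjusted p under 0.05, both higher. These were Enpp6, an enzyme that marks oligodendrocytes as they begin to differentiate (0.60 ± 0.080 and, on its other probe, 0.80 ± 0.13, SE), and C1ql1 (0.47 ± 0.12), named after their values were seen. Pdgfra, the receptor that marks precursors, was lower without overlap (-0.19 ± 0.086, SE), as were 21.9% of all genes. Of the 13 genes 0 passed limma's adjusted threshold. The summed signals include Tcf7l2, which is also on the thalamus and habenula list used below. It read 6.80 and 6.71 for controls against 6.58 and 7.89 for iodine. Astrocyte (5 higher, 7 lower of 12), microglia (7 and 5 of 12), neuron (5 and 7 of 12) and endothelial genes (5 and 5 of 10) were mixed. Their defining markers differed by 0.29 ± 0.093 (Gfap), 0.00039 ± 0.15 (Aif1), -0.069 ± 0.13 (Snap25) and 0.60 ± 0.25 (Cldn5). The other kept Gfap probe differed by 0.55 ± 0.082 (SE; limma adjusted p = 0.518), and neither Gfap probe overlapped between the groups. By brightest probe, 4 of the 12 astrocyte genes were higher without overlap and 5 lower (17.9% and 21.9% of all genes). Both probes of Gjb6, named after its values were seen, were lower without overlap (-0.41 ± 0.14 and -0.49 ± 0.16, SE).

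Choroid plexus, meningeal and thalamic genes separated the iodine arrays from each other. All 10 choroid plexus genes were brighter on 20-fold iodine replicate 3 than on 20-fold iodine replicate 2, with summed signals of 52090 and 12180, against 32854 and 29473 in controls, and Ttr, transthyretin, read 15.23 and 12.86. Summed signals of the 10 meningeal genes were 4411 and 2618 (3678 and 4753 in controls), and of the 9 thalamus and habenula genes read, of 10, 4242 and 2069 (2794 and 2159 in controls). Gpr151, a habenula marker, was not well above background on any array. On their brightest probes the iodine arrays of Mobp, Mal, Cldn11, Cnp and Mag lay 0.013 to 0.044 apart, those of Mbp 0.12 and those of Ermn 0.20. The part of adjoining tissue in the myelin values was not tested.

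**Figure D5:**
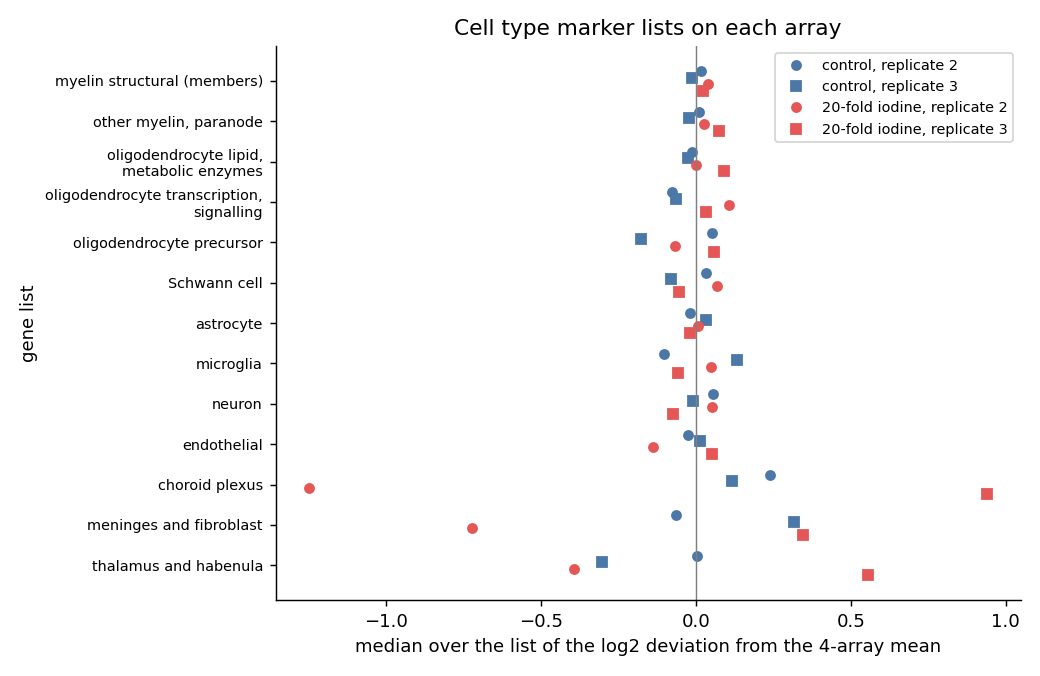
Median log2 deviation from the 4-array mean of each marker list on each array, genes by their brightest probe (circles replicate 2, squares replicate 3). The median of the 9 myelin members lies between -0.014 and 0.037 on every array, with members on both sides of it, while choroid plexus genes stand at -1.25 and 0.94 on the iodine arrays.

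As a description of likeness, the median deviation of the 9 members over the 4 arrays was followed most closely by Olfr558, Tfdp2 and Csf3r (Pearson's r over 4 arrays = 0.9997, 0.9997 and 0.9996), but 397 of 16784 other genes had r above 0.95 over so few arrays.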

How the data were processed

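Per the file headers, the authors' scanner files of the 4 arrays (1 colour) come from Agilent Feature Extraction, version 12.1.1.1. The deposited intensity used is the processed signal, background-subtracted and spatially detrended within the array, per the file headers. The deposited median spot and background intensities served an alternative. The array header names an older mouse build, so only promoter coordinates, of the RefSeq build, are given.

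Spots flagged as outliers (47 to 70 per array) were left out, log2 signals of a probe averaged, and each array's 75th percentile subtracted (their mean was added back). Probes well above background on at least 2 arrays were kept. Transcript accessions, without versions, matched RefSeq gene names (GRCm38.p6) for 32994 probes (58.3%). The promoter sequences of 8 members were kept from the motif search, and the Mbp promoter is not reported here.

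All kept probes were fitted with limma 3.58.1 (R 4.3.3; data.table package, version 1.17.8), two-sided, with Benjamini-Hochberg adjustment and a threshold of 0.05; 3 probes lack an array. Probe pairs were fitted likewise. Simulated data with 200 changed probes of 38228 gave, in a separate run for each size, 0 calls among them at 1.5-fold, 123 at 2-fold and 195 at 4-fold. Figures used matplotlib 3.10.9. Alternatives covered background correction, normalization, filter, variance model, replicate block, 1 row per gene and leaving out each array. Members, wider lists and markers were chosen with earlier results of these data known. Named genes were all members, the 3 genes with the smallest unadjusted p in each wider list, Myrf, defining markers and the 3 genes most alike. A few of these genes are left out of the text.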

Additional observations from a re-analysis of the deposited data

How the results depend on the processing

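No member probe passed the adjusted threshold in any of the 158 alternative values (smallest limma adjusted p = 0.187), and 154 of them kept their direction. The exceptions were the brighter Mog probe, which ranged from -0.036 to 0.16 when an array was left out, the other Mog probe (-0.011 to 0.17), the dimmer Mobp probe (-0.20 to 0.012) and Opalin (-0.10 to 0.51). The Mog pair ranged from -0.12 to 0.079. The members' median ranged from -0.032 to 0.054 with an array left out, against 0.061 with all arrays, and was 0.036 when arrays were centred on the median of probes detected on all of them. The wider median ranged from 0.067 to 0.10 with an array left out, was 0.11 with quantile normalization and 0.066 with that centring. Over all probes, 0 calls became 25 with normexp (chosen after seeing that the files hold median, not mean, spot signals) and 53 with trend and robust variances, none of them a member, and 0 pairs became 149 with normexp. The cause was not tested. With the replicate number as a block, 0 member probes were called and their median difference stayed at 0.061. The share of all probes with an unadjusted limma p under 0.05 was 7.93% against 9.03% without the block. The labels do not say what same-numbered arrays share. Their deviations from the group means had r = -0.02. With 2 arrays per group this is a single value for both replicate numbers, so it cannot decide whether the arrays were paired. With an array left out, its group keeps a lone array, taken to spread as the other group does. The precision rests on 2 arrays per group, and Myrf was well above background on 1 of 2 control arrays. Normexp on mean spot signals was not run.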
